A study of Arabidopsis thaliana with 24 samples.

Results

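The gibberellin biosynthesis enzymes examined here are the products of 10 Arabidopsis loci, chosen by name from the textbook pathway and found in the arrays by locus. The choice was made with earlier results of these data known. They are *GA1* (AT4G02780), *GA2* (AT1G79460), *GA3* (AT5G25900), *KAO1* (AT1G05160), *KAO2* (AT2G32440), *GA20OX1* (AT4G25420), *GA20OX2* (AT5G51810), *GA20OX3* (AT5G07200), *GA3OX1* (AT1G15550) and *GA3OX2* (AT1G80340). All 10 were measured on both chips, by 1 transcript each, among 30361 transcripts in experiment “a” and 37118 in experiment “b”. No filter on low values was applied, so all 10 entered every test.

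Gibberellins are diterpenoid hormones that promote elongation of the hypocotyl, the seedling stem. Their synthesis starts in the plastid, where GA1 (ent-copalyl diphosphate synthase) and GA2 (ent-kaurene synthase) cyclise the carbon skeleton. It continues through the cytochrome P450 enzymes GA3 (ent-kaurene oxidase) and KAO1 and KAO2 (ent-kaurenoic acid oxidases), and ends with soluble dioxygenases. The GA 20-oxidases carry out the penultimate stage and the GA 3-oxidases the last step to the bioactive hormone, and genes of these late steps are known as targets of regulation by other hormones and by gibberellin itself.

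RNA was measured on NimbleGen arrays in dissected hypocotyls of 5-day-old *Arabidopsis thaliana* seedlings grown in long days of 16 h light and 8 h dark. Seedlings were moved 2 h after lights on to 5 µM picloram, a synthetic auxin, or to the DMSO solvent alone. Experiment “a” held Col-0 wild type after 30 min or 2 h, and experiment “b” held Col-0 wild type and *afb5-5* after 2 h, with 3 replicates in each of the 4 groups of each experiment. *afb5-5* is a single insertion line (SALK_110643) in *AFB5*, which encodes an auxin receptor of the TIR1/AFB family, and its samples are compared with Col-0 treated alongside. Each replicate was a pool of 400 or more hypocotyls in “a” and roughly 700 in “b”, collected over several days and dissected within 30 min. RNA was amplified in “a” only. In “a” solvent samples were labelled with Cy5 and picloram samples with Cy3 throughout, and effects of the label and of the treatment cannot be told apart in that experiment. The paper names dual-colour labelling for “a”, so a control and a picloram sample may have shared an array there. The labels do not say which samples did, and “array” below means the values of 1 sample. In “b” all samples carried Cy3. Levels are log2 hybridisation intensities, 1 unit being a doubling, quantile normalized across the 12 samples in “a” and taken as deposited in “b”. They are compared within a gene and within an experiment only. A difference was called at an adjusted p (limma, Benjamini-Hochberg over all transcripts of the chip) under 0.05, and its error is the standard error of that model. The small number of arrays limits the precision. Since whole hypocotyls were pooled, fewer cells of a type and less RNA per cell cannot be told apart.

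Known auxin targets were checked first. At 2 h the auxin-conjugating enzyme gene *GH3.3* was 3.01 higher on picloram in “a” (SE 0.59, adjusted p 0.00963 by limma) and 2.88 higher in wild type in “b” (SE 0.28, adjusted p 0.000334), and *IAA19* and *HAT2* were called higher in both experiments. At 30 min all 3 had every picloram array above every control, and none was called. None was called in *afb5-5* either, where *GH3.3* was at 10.11, 10.89 and 11.01 in controls and at 12.19, 11.65 and 12.37 on picloram. These groups did not overlap, and the change was 1.41 (SE 0.28, unadjusted p 0.000311, adjusted p 0.99999 by limma). The *AFB5* transcript was at 13.38, 13.56 and 13.39 in wild-type controls and 13.24, 13.06 and 12.97 in *afb5-5* controls, and at 12.55, 13.16 and 12.65 in wild type and 13.16, 12.49 and 12.90 in *afb5-5* on picloram. It was 0.35 higher in wild-type than in *afb5-5* controls (SE 0.20, not called), and where the insertion lies relative to its probes is not given in the sources used here, so this level does not check the genotype. The 30 min controls were widely spread. Control replicate 3 had the lowest level of its group for *GH3.3* (10.90 against 14.21 and 12.72), *IAA19* (13.04 against 14.63 and 14.30) and *HAT2* (11.02 against 13.12 and 12.32). Control replicate 1 had the highest. The mean log2 level of these 3 genes was 13.99, 13.11 and 11.65 in control replicates 1, 2 and 3 at 30 min. In the 2 h controls it ranged from 12.78 to 12.94. The members' results that rest on the 30 min controls are given with and without control replicate 3. Of 4 root-hair genes, none was called at 2 h in “a”, but their mean log2 level ranged from 6.54 to 7.67 in the control arrays and from 7.17 to 8.69 in the picloram arrays, and in 2 of the 3 picloram arrays *EXPA7*, a root-hair expansin gene, was at 11.47 and 11.31. In “b” the same mean ranged from 8.43 to 9.21 in wild-type controls and from 8.22 to 8.71 on picloram. The root-hair genes *EXPA7*, *COBL9*, *LRX1* and *RSL4* lay at percentiles 37.4, 34.3, 17.5 and 28.3 of chip “a” and 28.1, 64.9, 69.5 and 18.1 of chip “b”. The shoot meristem genes *STM*, *CLV3*, *WUS* and *KNAT1* lay at 40.0, 28.8, 9.8 and 97.9 of chip “a”. Of 3 photosynthetic genes, *RBCS1A*, *LHB1B2* and *CAB2* lay at percentiles 99.7, 98.8 and 53.0 of chip “a”, while the petal and anther genes *AP3* and *PI* lay at 22.7 and 28.4. The 3 photosynthetic genes all had lower means in wild type on picloram at 2 h in both experiments, none of them called. Their mean log2 level ranged from 13.56 to 14.10 in 2 h controls and from 13.36 to 13.61 on picloram in “a”. In wild type of “b” it ranged from 11.96 to 12.30 and from 11.72 to 12.16. Their summed deposited intensity at 2 h did not overlap in either experiment. It was 85245 to 87533 in controls and 77440 to 83492 on picloram in “a”. In wild type of “b” it was 41554 to 47263 and 33809 to 37898. The share of all transcripts separated in this way was not counted for such sums. The part of these tissues in the results below was not tested.

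After 2 h of picloram in experiment “a”, 3 of the 5 late genes among the members were called higher and 1 of the 5 early genes lower. *GA20OX2*, *GA20OX1* and *GA3OX1* were 4.73-, 4.42- and 4.18-fold higher, and *GA3* was 1.71-fold lower. In total 4 of 10 members were called, 3 higher and 1 lower, where 11.4% of all transcripts were called, 5.53% higher and 5.84% lower. The median log2 change of the 10 members was 0.37, against -0.01 over all transcripts. By group of members, 2 of 3 20-oxidase genes and 1 of 2 3-oxidase genes were called higher, and no early gene was. Of the 5 early genes, 4 had a positive change that was not called. None of the 4 further 20-oxidase and 3-oxidase genes, listed below, was called.

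*GA20OX2*, a GA 20-oxidase gene, stood at 11.19, 11.41 and 11.01 in the 2 h controls and at 13.40, 13.39 and 13.55 on picloram. The lowest picloram array was 1.98 units above the highest control, far beyond the spread within either group. The log2 change was 2.24 (SE 0.33, adjusted p 0.0024 by limma), the 85th largest increase among 30361 transcripts. *GA20OX1*, the 20-oxidase gene best known from stem elongation, was at 11.30, 11.53 and 11.22 in controls and at 13.41, 13.71 and 13.38 on picloram. Again every picloram array exceeded every control array. Its log2 change was 2.14 (SE 0.42, adjusted p 0.00918).

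*GA3OX1*, whose product makes the bioactive hormone in vegetative tissue, was at 12.64, 12.59 and 13.07 in the 2 h controls and at 14.76, 14.84 and 14.90 on picloram. The groups did not overlap and the picloram arrays were tightly grouped. The log2 change was 2.06 (SE 0.29, adjusted p 0.00194 by limma). Its paralogue *GA3OX2* was at 8.70, 8.94 and 9.22 in controls and at 9.39, 9.44 and 9.25 on picloram. These groups did not overlap either, by a margin of 0.03 units, and the log2 change of 0.40 (SE 0.30, adjusted p 0.455) was not called. Groups without overlap, higher on picloram, were seen for 17.3% of all transcripts and, lower, for 18.9%. *GA3OX2* is next to *GA3OX4*, another 3-oxidase gene, on its chromosome. *GA3OX4* was not called in any comparison.

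*GA3*, the ent-kaurene oxidase gene, was at 14.67, 14.45 and 14.61 in the 2 h controls and at 13.85, 13.71 and 13.86 on picloram. All 3 picloram arrays were below all controls, as for 18.9% of all transcripts. The log2 change was -0.77 (SE 0.23, adjusted p 0.0493 by limma), and the call was lost with the replicate number as a block (adjusted p 0.0566), kept with that block set within each time point (0.0300), and lost in each of the 6 fits without one 2 h array (0.0900 to 0.145).

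The remaining early genes were not called at 2 h in “a”. *GA1* was at 8.17, 8.35 and 7.47 in controls and at 8.94, 9.00 and 7.87 on picloram. It was higher on picloram in every same-numbered pair, with a log2 change of 0.60 (SE 0.36, adjusted p 0.326 by limma). With the replicate block in a fit to these 2 groups alone, a fit added after seeing the data, *GA1* was called (adjusted p 0.0404). *GA2* changed by 0.33 (SE 0.29), and *KAO1* and *KAO2* by 0.05 each (SE 0.20 and 0.15). For *KAO2* the 95% confidence interval ran from -0.27 to 0.38. *GA20OX3* could not be resolved: its log2 levels were 7.03, 6.65 and 9.56 in controls and 7.33, 7.11 and 8.86 on picloram. Replicate 3 was the high array in both groups, and the interval of the change ran from -1.53 to 1.57.

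**Figure D1:**
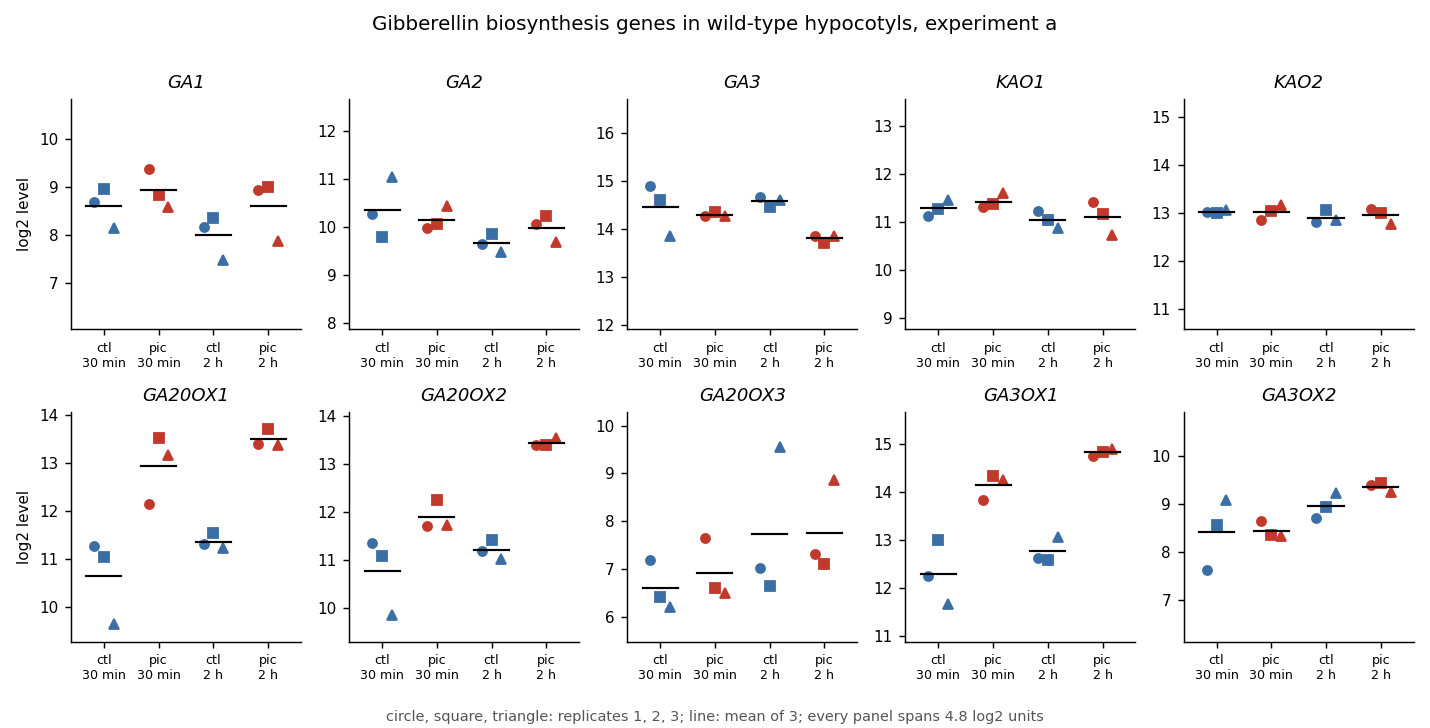
Log2 level of each of the 10 genes in the 12 wild-type samples of experiment “a” (blue, solvent control; red, picloram; symbols, replicates; line, mean of 3). *GA20OX1*, *GA20OX2* and *GA3OX1* lie above their controls on picloram at both times, *GA3* lies below its controls at 2 h, and control replicate 3 at 30 min is the lowest of its group for all 4 of these genes.

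The 30 min samples ask how early the response starts. *GA3OX1* was already 3.59-fold higher and was the only member called (1 of 10, where 0.208% of all transcripts were called, 0.155% higher). At an unadjusted p under 0.05 there were 3 members (8.08% of all transcripts), *GA20OX1*, *GA20OX2* and *GA3OX1*, which were also the 3 whose picloram arrays all exceeded the controls (5.81% of all transcripts). The median log2 change of the 10 members was 0.22, against -0.01 over all transcripts.

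*GA3OX1* was at 12.25, 13.00 and 11.67 in the 30 min controls and at 13.85, 14.34 and 14.27 on picloram. The lowest picloram array was 0.85 above the highest control. The log2 change was 1.84 (SE 0.29, adjusted p 0.0320 by limma). The replicate block ended the call (adjusted p 0.0680, or 0.156 in a block fit to these 2 groups alone), and it was kept with the block set within each time point (0.0236). Without control replicate 3 the change was 1.53 (SE 0.26, adjusted p 0.0840). The call was also lost without control replicate 1 (0.0856) or picloram replicate 2 or 3 (0.133 and 0.102), and it held in 6 of 14 alternatives judged at an adjusted p of 0.05.

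At 30 min *GA20OX1* was at 11.26, 11.04 and 9.64 in controls and at 12.14, 13.52 and 13.17 on picloram. The groups were apart, but the controls spread over 1.62 units and the picloram arrays over 1.38. The log2 change of 2.30 (SE 0.42, adjusted p 0.0654 by limma) was not called. Without control replicate 3 it was 1.80 (adjusted p 0.139 by limma), and without control replicate 1 it was 2.61 (adjusted p 0.0567). Without picloram replicate 1 it was 2.70 and called (adjusted p 0.0295). *GA20OX2* was at 11.36, 11.09 and 9.84 in controls and at 11.70, 12.24 and 11.73 on picloram. Its change of 1.13 (SE 0.33, adjusted p 0.299) fell to 0.67 without control replicate 3 (adjusted p 0.519). None of the other 7 members differed by more than 0.34 in either direction. Without control replicate 3 no member was called by limma and 4 had an unadjusted p under 0.05. The fourth was *GA3*, whose change went from -0.15 (SE 0.23) to -0.45 (SE 0.16, unadjusted p 0.0173, adjusted p 0.597), and the largest of the other 6 changes was then 0.35 for *GA3OX2*. The median of the 10 members without that array was 0.18.

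**Figure D2:**
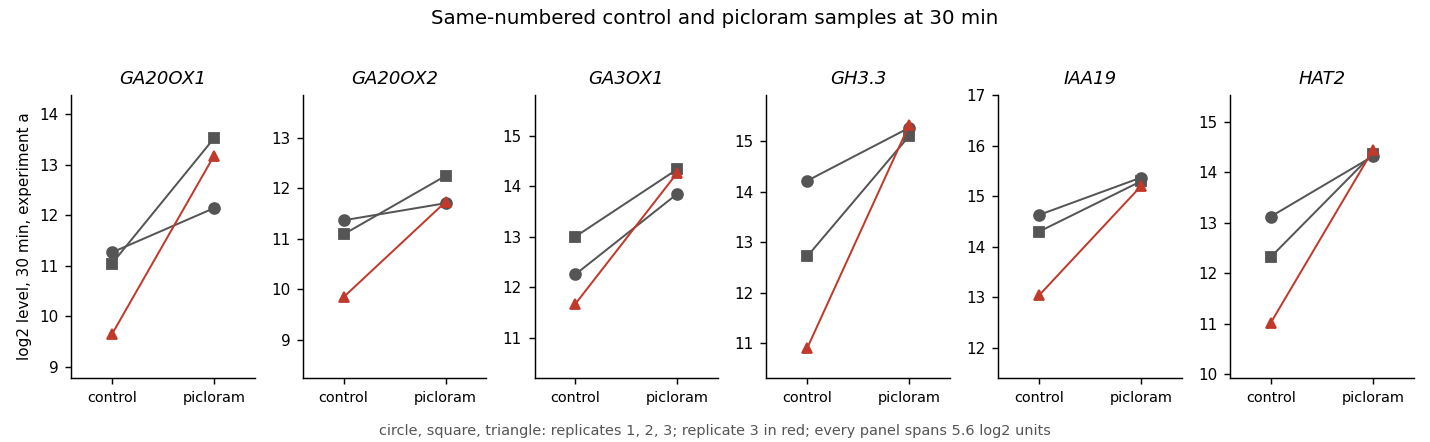
Log2 level at 30 min in experiment “a” of 3 gibberellin biosynthesis genes and 3 auxin-responsive reference genes, with same-numbered control and picloram samples joined by a line. Replicate 3 (red) has the lowest control level in all 6 panels and the steepest line, while every line rises.

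Whether the response at 2 h differed from that at 30 min was tested directly. None of the 10 members was called for this difference of responses (0.846% of all transcripts were), and 1 had an unadjusted p under 0.05 (16.4% of all transcripts). That gene was *GA20OX2*, whose response at 2 h exceeded that at 30 min by 1.11 (SE 0.47, unadjusted p 0.0352, adjusted p 0.264 by limma). Without control replicate 3 of the 30 min group the difference was 1.58 (adjusted p 0.0506). For *GA20OX1* the difference was -0.15 (95% interval -1.45 to 1.14) and for *GA3OX1* 0.22 (-0.68 to 1.12), intervals wide enough to hold a doubling. Without that control array these differences were 0.35 and 0.54, and again no member was called by limma. *GA20OX2* levels were ordered from 10.76 ± 0.81 (SD, n = 3) in the 30 min controls through 11.20 ± 0.20 in the 2 h controls and 11.89 ± 0.30 at 30 min of picloram to 13.45 ± 0.09 at 2 h of picloram. The 2 control groups overlapped, while the 2 picloram groups did not. The share of all transcripts separated in this way between the picloram groups was not counted. *GA3OX1* levels ran from 12.31 ± 0.67 and 12.77 ± 0.26 in the controls at 30 min and 2 h to 14.15 ± 0.26 and 14.83 ± 0.07 on picloram. Its picloram groups did not overlap either, again without a counted share over all transcripts, and its difference of responses was not called. *GA20OX1* levels followed the same order, from 10.65 ± 0.88 and 11.35 ± 0.16 in controls to 12.95 ± 0.72 and 13.50 ± 0.18 on picloram, with the picloram groups overlapping.

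In the solvent controls, 2 h was compared with 30 min. All were moved 2 h after lights on, so time since transfer and time of day at harvest cannot be told apart. None of the 10 members was called (0.356% of all transcripts were), and 1 had an unadjusted p under 0.05 (16.5% of all transcripts). This was *GA2*, at 10.26, 9.78 and 11.04 at 30 min and at 9.64, 9.84 and 9.48 at 2 h, a change of -0.71 (SE 0.29, unadjusted p 0.0321, adjusted p 0.257 by limma). The groups overlapped, with replicate 3 of the 30 min controls the high array. Without that array the change of *GA2* was -0.36 (SE 0.23, unadjusted p 0.156), and *GA3OX2* was then the 1 member with an unadjusted p under 0.05 (a change of 0.85, unadjusted p 0.00971, adjusted p 0.259).

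Experiment “b” repeated the 2 h treatment with unamplified RNA and a single dye. *GA3OX1* rose again, 1.76-fold, and was the only member called in wild type (1 of 10, where 2.17% of all transcripts were called, 1.71% higher). At an unadjusted p under 0.05 there were 2 members (14.0% of all transcripts), *GA3OX1* and *GA20OX1*, whose picloram arrays all exceeded the controls (10.8% of all transcripts). The median log2 change of the 10 members was 0.16, against -0.03 over all transcripts.

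*GA3OX1* was at 11.32, 11.44 and 11.34 in wild-type controls and at 12.10, 12.22 and 12.23 on picloram. The 2 groups were narrow and clearly apart. The log2 change was 0.82 (SE 0.14, adjusted p 0.00963 by limma), against 2.06 in “a”. The sizes in the 2 experiments are set side by side only, since chips, RNA amplification and labelling differed. Without picloram replicate 3 or control replicate 3 the call was lost (adjusted p 0.0611 and 0.0514) while the change stayed at 0.80 and 0.81.

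*GA20OX1* was at 8.64, 8.45 and 8.60 in wild-type controls and at 8.74, 9.64 and 9.47 on picloram. All picloram arrays exceeded all controls, replicate 1 by only 0.10 over the highest control. The log2 change was 0.73 (SE 0.27, adjusted p 0.260 by limma), not called. *GA20OX2* was at 9.07, 9.23 and 9.44 in controls and at 9.36, 9.72 and 9.49 on picloram, overlapping groups with a change of 0.28 (SE 0.18, adjusted p 0.482). The interval of that change was -0.10 to 0.66, beside a change of 2.24 in “a”.

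*GA3OX2* was lower on picloram in “b”, at 8.21, 8.50 and 8.00 in wild-type controls and 7.39, 7.87 and 7.86 on picloram. The groups did not overlap, as for 10.2% of all transcripts in this direction, and the change of -0.53 (SE 0.25, adjusted p 0.362 by limma) was not called. Its sign was opposite to that in “a”, and neither was called. *GA3* changed by -0.15 (SE 0.13), with overlapping groups and an interval of -0.43 to 0.14, beside -0.77 in “a”. *GA1*, *GA2*, *KAO1* and *KAO2* changed by 0.39, 0.17, 0.05 and 0.15, and *GA20OX3* by -0.19, none of them called. *GA1* and *GA20OX3* lay among the dimmest 25% of transcripts of chip “b”, at percentiles 21.7 and 21.2 of mean level, and their values there are the least certain of the 10.

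**Figure D3:**
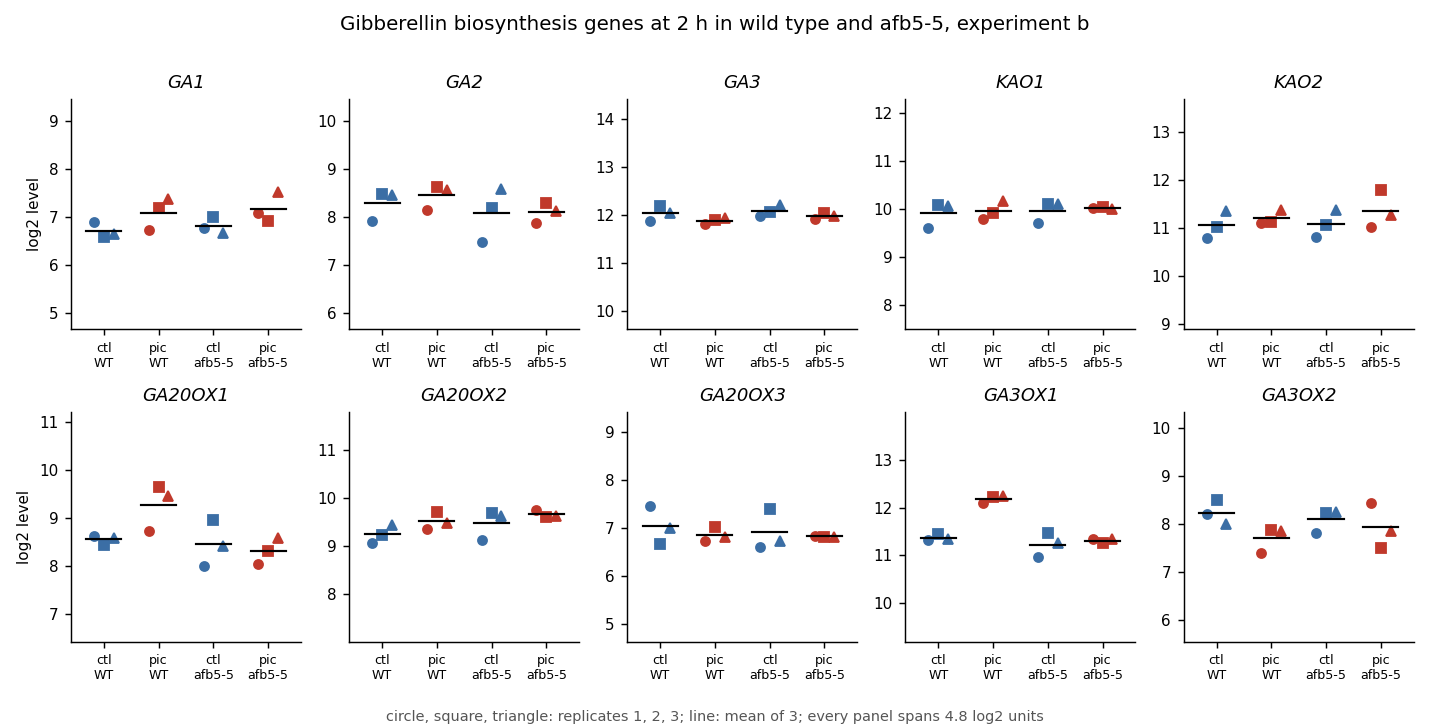
Log2 level of each of the 10 genes at 2 h in the 12 samples of experiment “b” (blue, solvent control; red, picloram; symbols, replicates; line, mean of 3). Wild-type picloram samples of *GA3OX1* stand alone above the other 9 arrays, and the *afb5-5* picloram samples lie among the controls.

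In *afb5-5* no member was called after 2 h of picloram by limma, nor was any of the 37118 transcripts, and no member had an unadjusted p under 0.05 (1.03% of all transcripts did). *GA3OX1* was at 10.97, 11.46 and 11.25 in *afb5-5* controls and at 11.34, 11.25 and 11.34 on picloram. The groups overlapped completely. The change was 0.09 (SE 0.14), with a 95% interval of -0.22 to 0.39, beside 0.82 (SE 0.14) in wild type. The direct test of that difference, given below, did not call it. *GA20OX1* was at 8.00, 8.95 and 8.41 in *afb5-5* controls and at 8.04, 8.31 and 8.58 on picloram, a change of -0.15 (SE 0.27, interval -0.74 to 0.44). The median log2 change of the 10 members was 0.04, against 0.00 over all transcripts.

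The difference between the genotypes in their response was tested as an interaction. None of the 10 members was called (0.102% of all transcripts were), and 2 had an unadjusted p under 0.05 (4.09% of all transcripts). The response of *GA3OX1* was 0.73 larger in wild type (SE 0.20, interval 0.30 to 1.17, unadjusted p 0.00321, adjusted p 0.439 by limma). That of *GA20OX1* was 0.87 larger (SE 0.38, interval 0.04 to 1.71, unadjusted p 0.0421). A loss of the response in *afb5-5* was thus not called by the test of the difference, although the unadjusted intervals of both genes lay above 0. For *GA20OX2* the difference was 0.10 (interval -0.44 to 0.64).

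Wild type and *afb5-5*, both on picloram, were also compared directly. *GA3OX1* was called 1.83-fold higher in wild type (1 of 10 members, where 1.24% of all transcripts were called, 0.978% higher). The log2 difference was 0.87 (SE 0.14, adjusted p 0.0111 by limma), and it was lost without wild-type picloram replicate 2 or 3 or *afb5-5* picloram replicate 3 (adjusted p 0.0531, 0.0730 and 0.0598). *GA20OX1* was 0.98 higher in wild type (SE 0.27, adjusted p 0.161), not called, with all 3 wild-type arrays above all 3 *afb5-5* arrays, as for 8.89% of all transcripts. This comparison shares its arrays with the ones above. Between solvent controls of the genotypes no member was called by limma, no transcript was called, and no member had an unadjusted p under 0.05 (0.911% of all transcripts did). The largest of these control differences was -0.24 for *GA20OX2* (interval -0.62 to 0.14).

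For *GA3OX1* in “b”, wild type on picloram (12.18 ± 0.07, SD, n = 3) was the highest of 4 groups. The other 3, wild-type controls (11.36 ± 0.06), *afb5-5* on picloram (11.31 ± 0.05) and *afb5-5* controls (11.23 ± 0.25), overlapped. For *GA20OX1*, wild type on picloram (9.29 ± 0.48) was followed by wild-type controls (8.56 ± 0.10), *afb5-5* controls (8.46 ± 0.48) and *afb5-5* on picloram (8.31 ± 0.27). The last 3 overlapped, and *afb5-5* control replicate 2 was above the lowest wild-type picloram array.

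**Figure D4:**
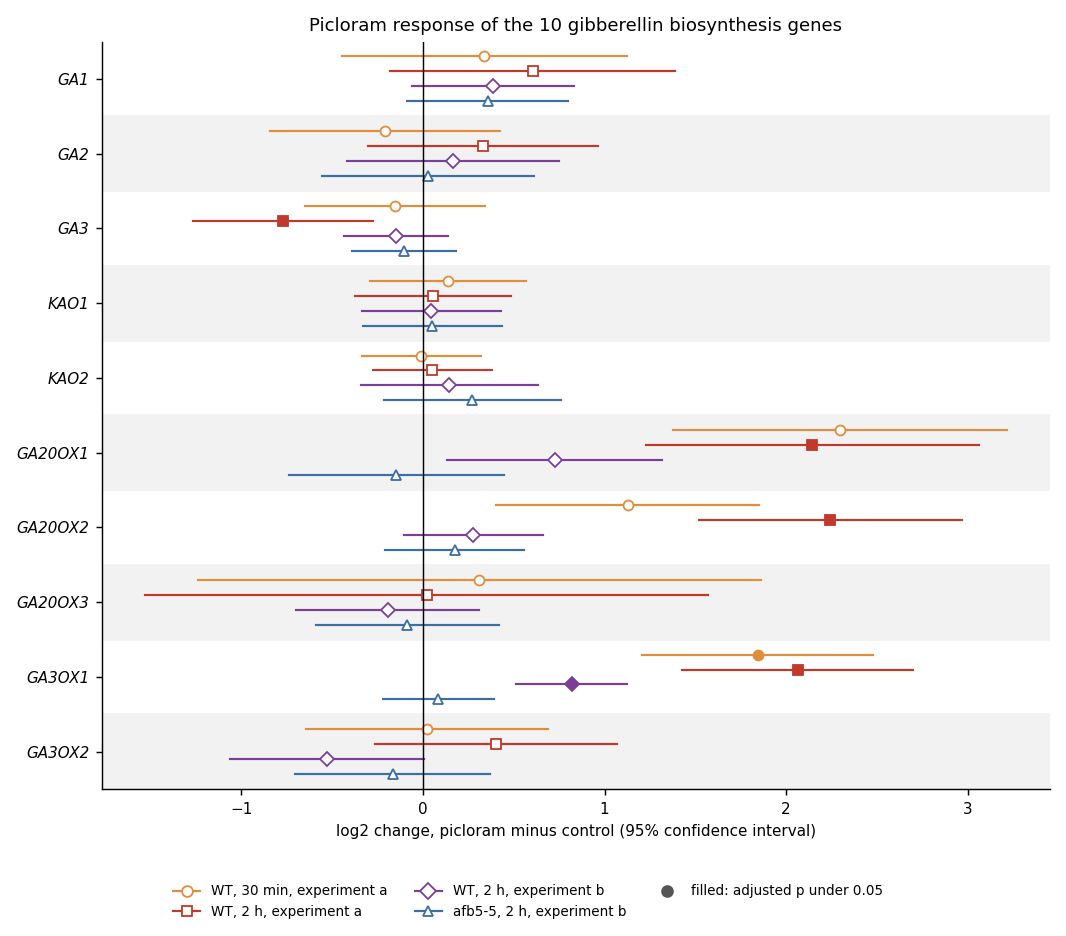
Log2 change on picloram (picloram minus control) of the 10 genes in each of 4 comparisons, with its 95% confidence interval from limma, and filled symbols where the adjusted p was under 0.05. *GA3OX1* is filled in the 3 wild-type comparisons, *GA20OX1* and *GA20OX2* only at 2 h in experiment “a”, and all *afb5-5* intervals include 0.

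The other genes of the pathway were taken from a list. Of 4 further synthesis genes (*GA20OX4*, *GA20OX5*, *GA3OX3* and *GA3OX4*) none was called in any comparison by limma, and in *afb5-5* *GA20OX4* had an unadjusted p of 0.0441. Of 11 inactivation genes, 2 were called higher and 1 lower at 2 h in “a” (5.53% and 5.84% of all transcripts were). In wild type in “b”, 2 were called higher (1.71% of all transcripts). *GA2OX8*, whose product inactivates precursors that retain the full carbon skeleton, went from 10.24, 10.86 and 11.03 to 14.59, 14.80 and 14.58 in “a”. This was a change of 3.95 (SE 0.43, adjusted p 0.000561). In “b” its first splice form went from 8.41, 8.36 and 7.99 to 11.51, 11.19 and 11.28 in wild type, a change of 3.08 (SE 0.22, adjusted p 3.996e-05), and its other forms rose by 2.95 and 3.03. The groups were far apart in both experiments. *GA2OX8* was also the one listed gene whose response was called larger in wild type than in *afb5-5*, by 2.59 for the first form (SE 0.31, adjusted p 0.00822).

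The other called inactivation genes were not shared by the experiments. *GA2OX1*, a 2-oxidase gene for bioactive gibberellins, rose by 1.30 in “a” (SE 0.35, adjusted p 0.0353 by limma) and changed by 0.32 in “b” (adjusted p 0.526). *GA2OX2* was lower by 0.96 in “a” (log2 change -0.96, adjusted p 0.0460), and its first splice form was not called in wild type in “b”. *GA2OX6* rose by 1.35 in “b” (SE 0.25, adjusted p 0.0151) and changed by -0.07 in “a”.

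Of 5 genes of gibberellin perception, 1 was called lower at 2 h in “a” (5.84% of all transcripts). Gibberellin removes the DELLA repressors, and 4 of their 5 genes were called higher at 2 h in “a” (5.53%). In wild type in “b”, 2 of 5 DELLA genes were called higher (1.71%). *GAI* rose by 1.15 in “a” (SE 0.21, adjusted p 0.00754 by limma) and 1.11 in “b” (SE 0.22, adjusted p 0.0241). *RGL1* rose by 0.61 and 1.83 (adjusted p 0.0412 and 0.0393). *RGL3* rose by 2.34 in “a” (adjusted p 0.00364) and changed by 1.34 in “b” (adjusted p 0.0883), and *RGA* rose by 0.75 in “a” (adjusted p 0.0101) and changed by -0.10 in “b”. The receptor gene *GID1A* fell by 0.87 in “a” (log2 change -0.87, adjusted p 0.00737) and changed by -0.31 in “b”. No gene of these lists was called in *afb5-5*, where *GA2OX8* was 1 of the 2 with an unadjusted p under 0.05 (0.0495 for its first form and 0.00164 for its second).

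**Figure D5:**
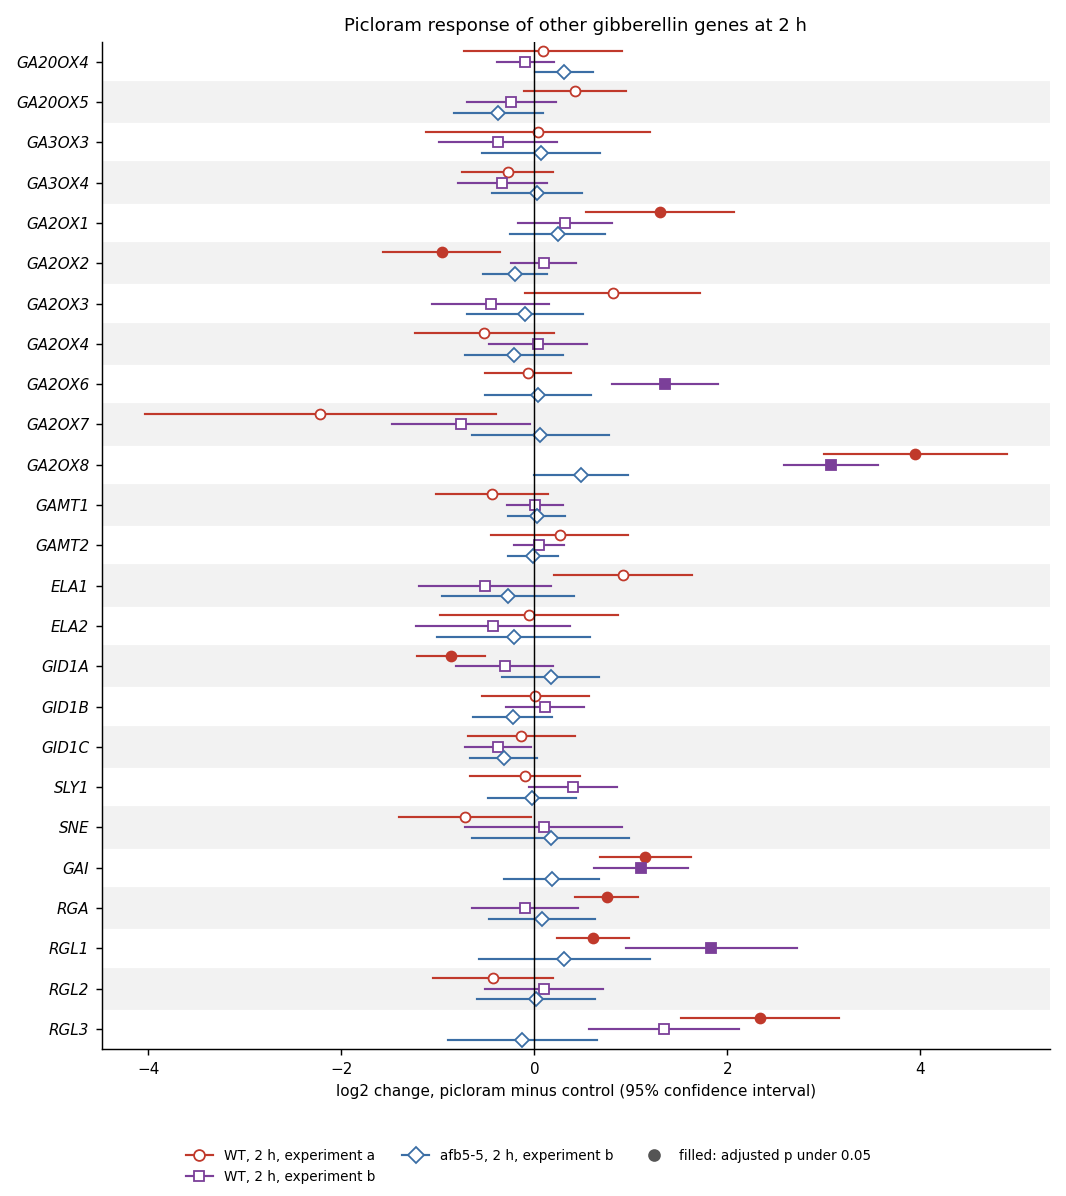
Log2 change on picloram at 2 h (picloram minus control), with 95% confidence intervals from limma, of 25 other gibberellin genes in wild type of experiments “a” and “b” and in *afb5-5*. Filled symbols mark an adjusted p under 0.05. *GA2OX8* and the DELLA genes *GAI* and *RGL1* are filled in both experiments, and no *afb5-5* symbol is.

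The genes whose levels followed those of the called synthesis genes most closely were ranked by the mean of Pearson's r over the 12 samples of each experiment, among 30197 loci on both chips. These correlations describe arrays that share the treatment groups. For *GA3OX1* the closest were the Aux/IAA repressor gene *IAA5* (mean r 0.945), *GA2OX8* (0.932) and the Aux/IAA gene *IAA1* (0.929). For *GA20OX1* they were the helix-loop-helix gene *PRE5* (0.912), *GA3OX1* itself (0.906) and *IAA5* (0.898). For *GA20OX2* they were AT5G50335 (0.898), the bHLH gene *UNE10* (0.866) and AT5G44250 (0.837), and none of these was shared with the lists of the other 2.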

How the data were processed

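Picloram and control samples were grouped by their labels, 3 per group and 12 per experiment, and every column matched 1 sample (0 did not). Both deposited tables hold linear hybridisation intensities, 1 per transcript. The authors named RMA in R (package oligo) for both, with TAIR8 annotation for “a” and TAIR10 for “b”. The submitters' processing notes also name RMA. Array medians agreed within 1.03-fold in “b” and differed by up to 1.72-fold in “a”, so “a” was quantile normalized after log2 and “b” was only log2 transformed. Groups were tested in R 4.3.3 with lmFit and eBayes of limma 3.58.1, in 1 fit per experiment to all 12 samples without covariates, two-sided, after the script was tested on simulated data.

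All 10 loci were named, and other pathway genes, treatment and tissue markers were taken from fixed lists. The 3 closest patterns were named for each 20-oxidase or 3-oxidase gene called in wild type. Members and lists were chosen with earlier results of these data known. All 52 listed loci matched the reference gene table (TAIR10.1), used for names and gene order only.

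Same-numbered samples deviated together in control and picloram groups at 30 min (r 0.598, 0.462 and 0.367) and 2 h (0.336, 0.551 and 0.497) of “a” and in wild type of “b” (0.604, 0.675 and 0.384), not in *afb5-5* (0.179, 0.0412 and 0.125). Since every r of the first 3 sets was over 0.1, the numbers were taken to pair them. Between wild-type and *afb5-5* controls of “b” r was 0.688, 0.0406 and 0.567 for replicates 1, 2 and 3. Labels give no shared day and no shared two-colour array for a number. Alternatives were other scalings, a filter leaving out the dimmest 25% of transcripts, replicate blocks, models of the compared groups alone, a robust fit with a variance trend, an adjusted p under 0.01, means over splice forms, and leaving out each array.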

Additional observations from a re-analysis of the deposited data

How the results depend on the processing

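With 3 pooled samples a group and “a” confounded with dye, calls close to the threshold moved. Of 141 recomputed counts of called members, 114 were equal to those reported, 25 lower and 2 higher. Of the 25, 10 were the loss of *GA3* at 2 h in “a”, where the count of 4 became 3. *GA1* made it 5 in the block model of the compared groups alone. At 30 min the count of 1 became 0 with median centring, with the replicate block, in a model of the compared groups alone, with the block in that model, and at an adjusted p under 0.01. Leaving out 1 array gave 0 to 2. For wild type at 2 h in “b” leaving out 1 array gave 0 to 1, and for picloram-treated wild type against *afb5-5* also 0 to 1, with 0 at an adjusted p under 0.01. At 2 h in “a” the calls of *GA20OX1*, *GA20OX2* and *GA3OX1* held in all 14 alternatives judged at 0.05 (adjusted p up to 0.0411, 0.0142 and 0.0130). *GA3* lost its call without normalization (0.0902), with median centring (0.0922), with the block (0.0566) and in 6 of 6 fits leaving out 1 array. No member's change reversed among called values. Among members called without it, the replicate block across all 12 samples ended only the calls of *GA3OX1* at 30 min and *GA3* at 2 h. Blocks within a time point or genotype could not be fitted for control 2 h against 30 min or for wild type against *afb5-5*, and a model of the compared groups alone could not be had for differences of responses. Quantile normalization was repeated in “a” whenever an array was left out. The cause of these losses was not tested.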
